A study of Danio rerio with 6 samples.

Results

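Non-muscle actomyosin is the contractile and structural actin network that nearly every animal cell carries, and 10 zebrafish genes of it were followed here. They were chosen by symbol: the beta-actin genes actb1 and actb2, the non-muscle myosin II heavy chain genes myh9a, myh9b and myh10, the regulatory light chain genes myl12.1 and myl12.2, and the filament turnover genes cfl1, pfn1 and capza1a. All 10 were found on 1 row each among the 25089 genes of the deposited table. RNA had been sequenced from 6 libraries of cells sorted by fluorescence from the apex of the ventricle in a line labelled Gata4:GFP. In that line green fluorescent protein reports on the heart transcription factor gene gata4, all 6 libraries carry it, and the submitters call the sorted cells cardiomyocytes. Of the libraries, 3 came from uninjured hearts and 3 from hearts regenerating 5 days after the apex had been resected. The injury tissue was cleared away before dissociation. The labels give neither the age of the fish, nor the number of fish in a library, nor the gate used, so the p-values measure the spread between libraries, which may in part be technical.

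Myosin II is built from a pair of heavy chains that bind actin and hydrolyse ATP, each carrying an essential and a regulatory light chain. Phosphorylation of the regulatory light chain by myosin light chain kinase and other kinases switches the motor on. Actin is kept in turnover by cofilin, which severs old filaments, by profilin, which feeds monomers to growing ends, and by capping protein, which closes those ends. In heart muscle these genes work beside the far more specialised sarcomere, and the same non-muscle proteins form the contractile ring that divides a cell.

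FPKM, fragments scaled to transcript length and library total, summed to between 422675 and 535337 per library. Mitochondrially encoded transcripts took between 21.8% and 41.9% of that sum in uninjured libraries and between 10.3% and 18.8% in regenerating ones. Such a difference can move the values of other genes, and its part in these libraries was not tested. Levels below are scaled FPKM, divided by a factor that sets the median gene equal between libraries. Changes are log2 differences, regenerating minus uninjured, of scaled FPKM + 1, fitted with limma over 13319 genes, with p-values adjusted over all of them by Benjamini-Hochberg and a threshold of 0.05. The median change over all genes was 0.05 with scaling and 0.51 without.

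Relative to the median gene, the light chain gene myl12.2 rose in regenerating libraries and the other 9 genes did not pass the test. The 9 ran from a log2 change of -1.07 for myh9a to 0.72 for capza1a, and the median over the 10 genes was 0.32. That 1 rise among 10 genes stands beside a background of 7.5% of all tested genes higher, 3.94% lower and 11.4% in either direction. Without scaling, 4 of the 10 rose (myl12.2, capza1a, cfl1 and myl12.1) and none fell, where 23.7% of all genes were higher, 1.52% lower and 25.3% either. At an unadjusted p below 0.05, limma gave 3 of the 10 higher and 1 lower in the scaled fit. The share of all genes past that unadjusted level was not counted, so these counts cannot be set against a background. In the authors' deposited table myl12.2 alone of the 10 is past an adjusted p of 0.05. It stands beside 4.84% of genes higher and 4.62% lower there. Those shares are of 21504 genes with a mean count above 0, a wider set than the 13319 behind the other shares. The groups did not overlap for 4 of the 10, all higher in regenerating libraries, beside 19.1% of all genes higher and 13.7% lower in this way. In deposited FPKM the same held for 6 of the 10, all higher, beside 38.1% of genes higher and 3.13% lower. All 10 genes were above 1 FPKM in every library, the lowest value being 6.99 FPKM, so none of them entered the test through one group alone.

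**Figure D1:**
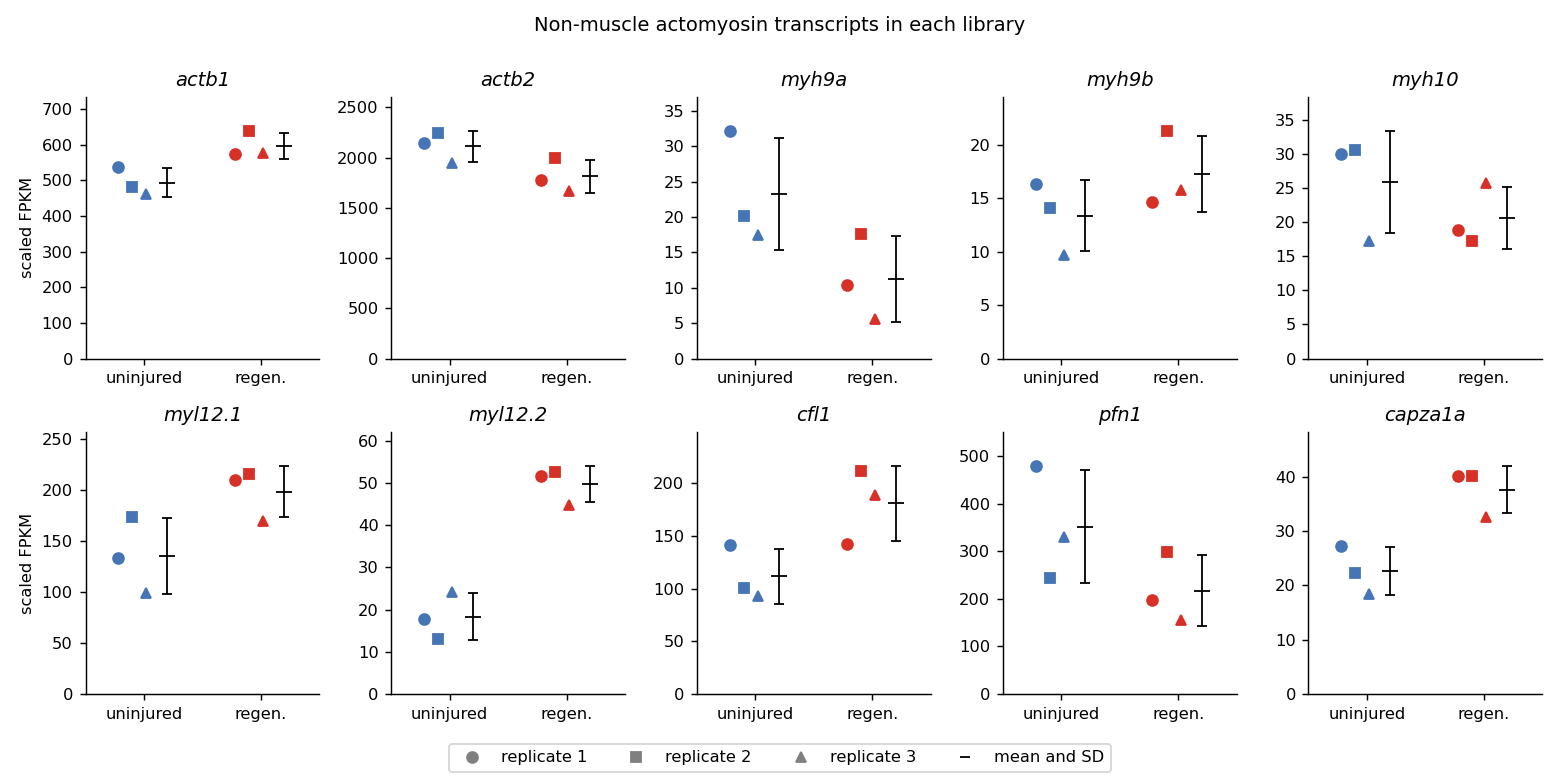
Scaled FPKM (linear axes from 0) of the 10 genes in each of the 6 libraries, with symbols for the replicates and the mean ± SD of each group (n = 3) beside them. The groups do not overlap for actb1, myl12.2, cfl1 and capza1a, although cfl1 is separated only narrowly, 141.7 against 142.3.

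The levels covered more than 2 orders of magnitude and were led by the same 5 genes in both groups. In uninjured libraries the order was actb2, actb1, pfn1, myl12.1 and cfl1, followed by myh10, myh9a, capza1a, myl12.2 and myh9b. The libraries' ranges did not overlap between actb2 and actb1, between pfn1 and myl12.1, or between cfl1 and myh10. The ranges of actb1 and pfn1, of myl12.1 and cfl1, and of each neighbouring pair among the last 5 genes did overlap. In regenerating libraries myl12.2 stood sixth, above capza1a and myh10, and these 3 no longer overlapped in range, while myh9a came last. There actb2, actb1 and pfn1 did not overlap in range, cfl1 stood clear of myl12.2, and the neighbours pfn1, myl12.1 and cfl1 overlapped, as did myh10, myh9b and myh9a. The 10 genes together made up between 0.511% and 0.720% of summed FPKM in uninjured libraries and between 0.717% and 0.765% in regenerating ones, and actb1 and actb2 accounted for 75.1% to 81.5% of that in the 6 libraries.

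Beta-actins form the non-muscle filament itself. The major gene actb2 (ENSDARG00000037870) measured 2142, 2250 and 1943 scaled FPKM in uninjured replicates 1 to 3, and 1778, 1996 and 1670 in regenerating replicates 1 to 3. The groups overlapped, through regenerating replicate 2 and uninjured replicate 3. Its log2 change was -0.22 (SE 0.24, limma adjusted p = 0.597) with a 95% interval from -0.75 to 0.31, and it lay above 0, at 0.39, without scaling. The minor gene actb1 (ENSDARG00000037746) measured 538, 480 and 462 scaled FPKM in uninjured and 574, 639 and 578 in regenerating libraries. Every regenerating library was above every uninjured one. The change of 0.27 (SE 0.22, limma adjusted p = 0.461) did not pass. Both genes encode nearly the same protein, and reads of 40 bases may be shared between them, so how the authors' counting divided them bears on each level.

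A ratio taken within a library does not depend on scaling. The ratio of actb1 to actb2 was 0.251, 0.214 and 0.238 in uninjured libraries and 0.323, 0.320 and 0.346 in regenerating ones. All 3 regenerating libraries were above all 3 uninjured ones, a 1.41-fold difference (log2 difference 0.50) with an exact permutation p of 0.1 (two-sided, n = 3 per group), the smallest that 3 against 3 allow. As a share, actb1 gave 19.0% ± 1.26 of beta-actin FPKM in uninjured and 24.8% ± 0.800 in regenerating libraries (SD, n = 3).

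None of the 3 heavy chain genes passed the test. The gene myh9a (ENSDARG00000063295), 1 of 2 zebrafish counterparts of the gene for the motor of non-muscle myosin IIA, measured 32.2, 20.1 and 17.4 scaled FPKM in uninjured libraries and 10.4, 17.7 and 5.58 in regenerating ones. Only regenerating replicate 2 reached the uninjured range, passing uninjured replicate 3 by a small margin. The log2 change was -1.07 (SE 0.39, limma adjusted p = 0.113), with an interval from -1.94 to -0.19, and it was -0.50 without scaling. Without regenerating replicate 3 it was -0.67 (limma adjusted p = 0.343), and without regenerating replicate 2 it was -1.41 (0.0694). The authors' deposited table gives -1.11 with an adjusted p of 0.0507, just outside the threshold.

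Its duplicate myh9b (ENSDARG00000001014) measured 16.3, 14.1 and 9.72 scaled FPKM in uninjured and 14.6, 21.3 and 15.8 in regenerating libraries. These groups overlapped, and the change of 0.36 (SE 0.28, limma adjusted p = 0.449) did not pass. The gene myh10 (ENSDARG00000000103), which encodes the motor of non-muscle myosin IIB, measured 29.9, 30.5 and 17.3 in uninjured and 18.8, 17.2 and 25.7 in regenerating libraries. Its change was -0.30 (SE 0.29, limma adjusted p = 0.558) with scaling and 0.29 without. Its groups overlapped widely, uninjured replicate 3 and regenerating replicate 3 each lying among the values of the other group.

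The ratio of myh9a to myh9b was 1.97, 1.43 and 1.79 in uninjured libraries and 0.713, 0.829 and 0.354 in regenerating ones. The more abundant of the 2 genes was therefore myh9a in every uninjured library and myh9b in every regenerating one. These duplicates may share reads too, which could not be checked, so the ratio also depends on how the reads were divided. The log2 difference was -1.53, a 2.90-fold lower ratio (exact permutation p = 0.1, two-sided, n = 3 per group), and leaving out any 1 library gave between -1.775 and -1.16. In the sum of the 3 heavy chain genes, myh9b made up 21.5% ± 0.582 in uninjured and 35.0% ± 2.58 in regenerating libraries (SD, n = 3). The share of myh9a was 37.2% ± 5.29 and 22.4% ± 9.87, with an overlap, and that of myh10 was 41.4% ± 5.002 and 42.7% ± 11.98. The ratio of myh9a to myh10 overlapped between the groups (exact permutation p = 0.3, two-sided, n = 3 per group).

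Regulatory light chains carry the phosphorylation that turns the motor on. The light chain gene myl12.2 (ENSDARG00000025326) measured 17.7, 12.99 and 24.2 scaled FPKM in uninjured libraries and 51.8, 52.6 and 44.8 in regenerating ones. The lowest regenerating library was well above the highest uninjured one. It rose from 18.3 ± 5.61 to 49.7 ± 4.29 scaled FPKM (SD, n = 3). The fitted difference was 1.43 (SE 0.27, limma adjusted p = 0.0104) with an interval from 0.83 to 2.03. The change was 2.03 without scaling, and the authors' deposited table gives 1.27 with an adjusted p of 0.00251. Without regenerating replicate 1 the change was 1.41 and no longer passed (limma adjusted p = 0.0534), and it passed without each of the other 5 libraries.

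The more abundant myl12.1 (ENSDARG00000099766) measured 133.5, 174 and 98.6 scaled FPKM in uninjured and 210, 216 and 170.0 in regenerating libraries. Uninjured replicate 2 lay above regenerating replicate 3, so the groups overlapped. The change of 0.58 (SE 0.26, limma adjusted p = 0.194) did not pass with scaling, and the change of 1.19 without scaling did (limma adjusted p = 0.0342). The ratio of myl12.1 to myl12.2 was 7.55, 13.4 and 4.08 in uninjured libraries and 4.05, 4.10 and 3.80 in regenerating ones. The regenerating libraries lay within a narrow range at the foot of a wide uninjured one, and the groups touched through uninjured replicate 3 (exact permutation p = 0.2, two-sided, n = 3 per group). These genes are close relatives and may share reads.

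None of the 3 turnover genes passed with scaling. Cofilin gene cfl1 (ENSDARG00000021124) measured 141.7, 101 and 93.1 scaled FPKM in uninjured and 142.3, 212 and 189 in regenerating libraries. The groups did not overlap, but uninjured replicate 1 and regenerating replicate 1 were nearly equal. Its change was 0.69 (SE 0.26, limma adjusted p = 0.122), and 1.304 without scaling, where it passed (limma adjusted p = 0.0133).

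The capping protein alpha subunit gene capza1a (ENSDARG00000034240) measured 27.3, 22.3 and 18.5 scaled FPKM in uninjured and 40.2, 40.1 and 32.6 in regenerating libraries, with no overlap. Its change of 0.72 (SE 0.24, limma adjusted p = 0.0900) had an interval from 0.17 to 1.26, and without scaling it was 1.31 and passed (limma adjusted p = 0.0119). Its duplicate capza1b did not overlap either, with 35.5 to 51.3 in uninjured and 53.9 to 67.1 scaled FPKM in regenerating libraries. Of all tested genes 19.1% were higher in this way. The change of capza1b, 0.47 (SE 0.24, limma adjusted p = 0.235), did not pass with scaling, and that of 1.08 without scaling did (limma adjusted p = 0.0297). The ratio of capza1a to capza1b was higher in all 3 regenerating libraries, by 1.20-fold (exact permutation p = 0.1, two-sided, n = 3 per group), with 0.520 to 0.545 against 0.578 to 0.744. The log2 difference of 0.26 was 0.145 without regenerating replicate 2, which had the highest ratio.

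The profilin gene pfn1 (ENSDARG00000088091) measured 479, 244 and 331 scaled FPKM in uninjured and 198, 299 and 155 in regenerating libraries. The groups overlapped, and the change was -0.69 (SE 0.33, limma adjusted p = 0.212) with scaling and -0.075 without. Of the sum of pfn1 and pfn2, pfn1 made up 77.4% to 91.4% in uninjured and 64.4% to 85.2% in regenerating libraries, and the groups overlapped. Another profilin gene, pfn2l, was added to that sum after the data had been seen. Of the sum of pfn1, pfn2 and pfn2l, pfn1 made up 82.2%, 68.7% and 71.5% in uninjured and 47.3%, 67.2% and 42.2% in regenerating libraries. With pfn2l in the sum the groups did not overlap, though regenerating replicate 2 lay close below uninjured replicate 2. The gene pfn2l, named after its value was seen, averaged 53.8 ± 12.3 scaled FPKM in uninjured libraries and 118 ± 20.5 in regenerating ones (SD, n = 3). It rose by 1.124 on the log2 scale (SE 0.26, limma adjusted p = 0.0243). The call of pfn2l was lost without uninjured replicate 2 (limma adjusted p = 0.0604), regenerating replicate 1 (0.108) or regenerating replicate 3 (0.0786).

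The muscle cofilin gene cfl2 served as the reference for cfl1. It lay at -0.42 (SE 0.32, limma adjusted p = 0.432) with scaling and at 0.12 otherwise. The ratio of cfl1 to cfl2 was 14.1, 6.17 and 13.02 in uninjured and 18.8, 32.7 and 20.8 in regenerating libraries. No uninjured library reached a regenerating one, and the difference was 2.24-fold (exact permutation p = 0.1, two-sided, n = 3 per group). The groups did overlap once the cofilin gene cfl1l, named after its values were seen, was counted too. Of the sum of cfl1, cfl1l and cfl2, cfl1 made up 65.9% to 76.7% in uninjured and 74.8% to 82.8% in regenerating libraries. In all, 6 ratios such as that of cfl1 to cfl2 were tested. For the 4 with no overlap (actb1 to actb2, myh9a to myh9b, cfl1 to cfl2 and capza1a to capza1b) the p was 0.15 when adjusted over the 6, so none of them can pass a threshold of 0.05 in this design. These 4 of 6 stand beside 34.0% of all gene pairs above 1 FPKM in every library, in which the groups did not overlap either.

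**Figure D2:**
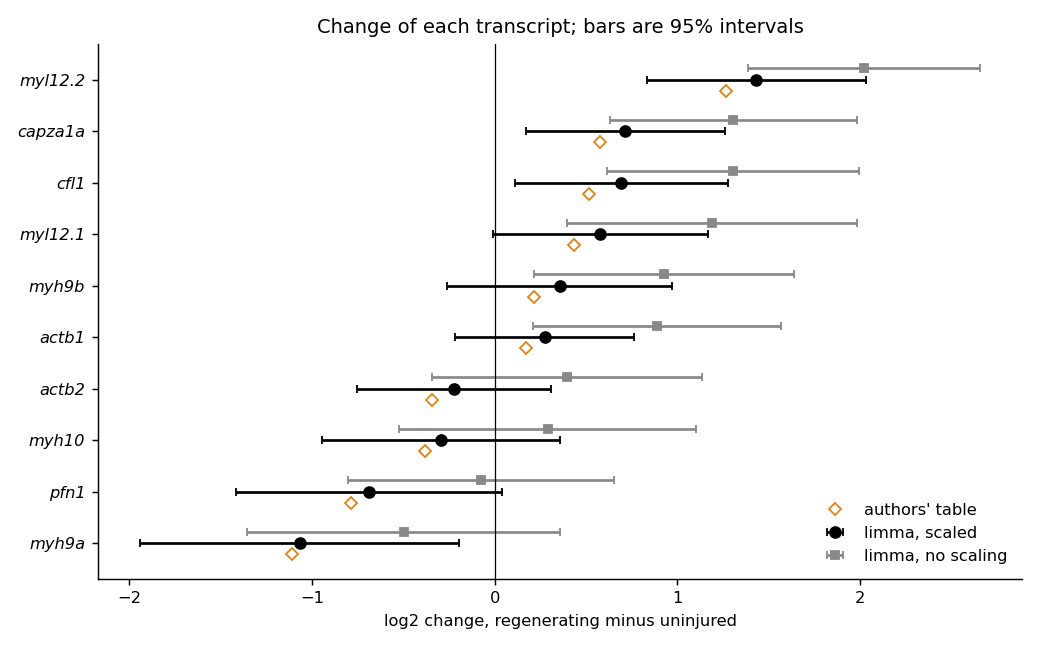
Log2 change (regenerating minus uninjured) of the 10 genes from limma with scaling (circles) and without (squares), with 95% intervals, and as given in the authors' deposited table (diamonds, no interval). The scaled interval of myl12.2 runs from 0.83 to 2.03 and that of myh9a from -1.94 to -0.19, and the values without scaling lie to the right for each gene.

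Over all 45 ratios between 2 of the 10 genes, the groups did not overlap in 27, or 60.0%. The same held for 34.0% of all pairs among the 8924 genes above 1 FPKM in every library. The 45 ratios share genes and are not independent, and they were counted after the data had been seen. The heavy chain gene myh9a was lower in regenerating libraries against 7 of its 9 partners and higher against none. The profilin gene pfn1 and actb2 were lower against 6 partners each, and myh10 against 5. In the other direction myl12.2, cfl1 and capza1a were each higher against 5 partners and lower against none. The largest difference was between myh9a and myl12.2, a log2 difference of -2.64 that ran from -0.47 to 0.86 in uninjured and from -3.00 to -1.57 in regenerating libraries.

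**Figure D3:**
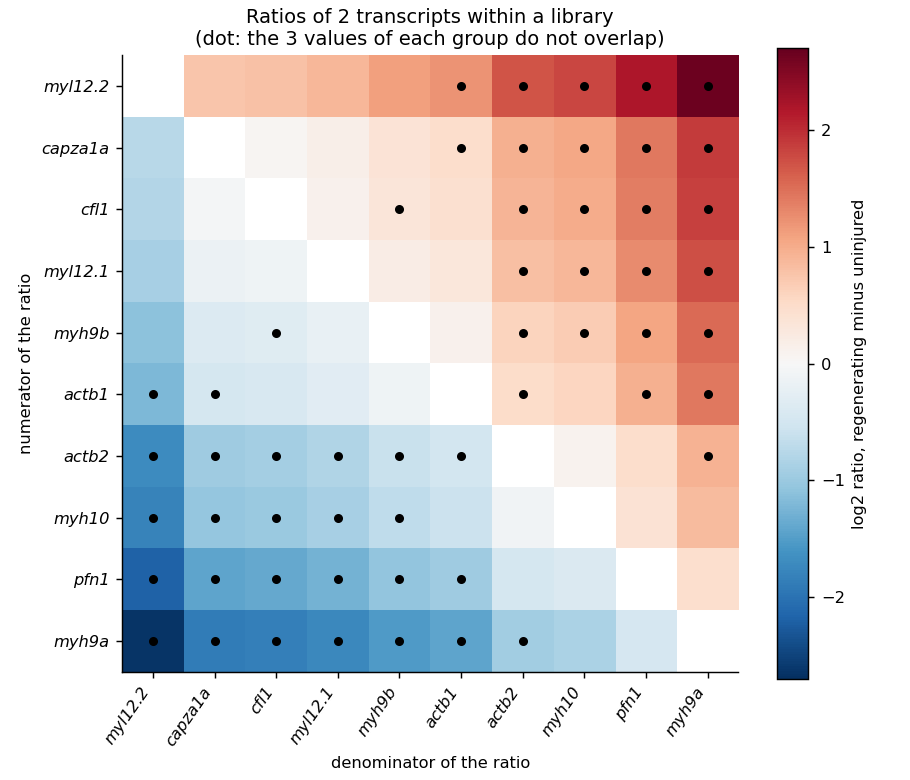
Difference between groups (regenerating minus uninjured) in the log2 ratio of each pair of the 10 genes, numerator in rows and denominator in columns. Black dots mark the 27 of 45 pairs in which the 3 values of one group lie wholly above those of the other, and each pair appears on both sides of the diagonal.

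The share that non-muscle genes took beside their muscle counterparts was compared next. Transcripts of myh9a, myh9b and myh10 made up 3.69%, 3.60% and 3.09% of the summed FPKM of these 3 genes and 7 muscle myosin heavy chain genes in uninjured libraries, and 9.07%, 11.5% and 5.76% in regenerating ones. All regenerating libraries were above all uninjured ones, although none of the 3 heavy chain genes passed. Over the same libraries the muscle heavy chain sum went from between 1395 and 2043 to between 432 and 770 scaled FPKM. The ventricular myosin gene vmhcl, the most abundant of them on average, fell by 2.30 on the log2 scale (SE 0.27, limma adjusted p = 0.00134). The next most abundant, myh6, went the other way and did not pass, at 1.43 (SE 0.56, limma adjusted p = 0.136). Without scaling myh6 lay at 2.03 and passed (limma adjusted p = 0.0264). In regenerating replicate 3 myh6 stood above vmhcl, 349.4 against 302.7 scaled FPKM. The share of myl12.1 and myl12.2 among regulatory light chains was 3.24%, 4.51% and 5.02% in uninjured and 12.5%, 15.5% and 5.95% in regenerating libraries. The counterparts in that sum include myl9a and myl9b, which are also counted below among the other non-muscle myosin II chains. It is thus not a strict share of non-muscle against muscle genes. The main muscle counterpart myl7, the light chain gene of the zebrafish heart, lay at -0.83 (SE 0.41) and did not pass in limma (adjusted p = 0.226). The share of actb1 and actb2 among actins overlapped between the groups, with 50.7% to 68.6% against 60.2% to 78.2%. Regenerating replicate 3 had the lowest non-muscle share of the regenerating libraries in each of these comparisons. It also had their highest summed level of cardiomyocyte markers, 10890 scaled FPKM against 5956 and 5755. Those markers include myl7, vmhc and actc1a, which are also among the muscle counterparts in these shares. The marker sum is therefore not an independent observation. The part of cardiomyocyte content in these shares was not tested.

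**Figure D4:**
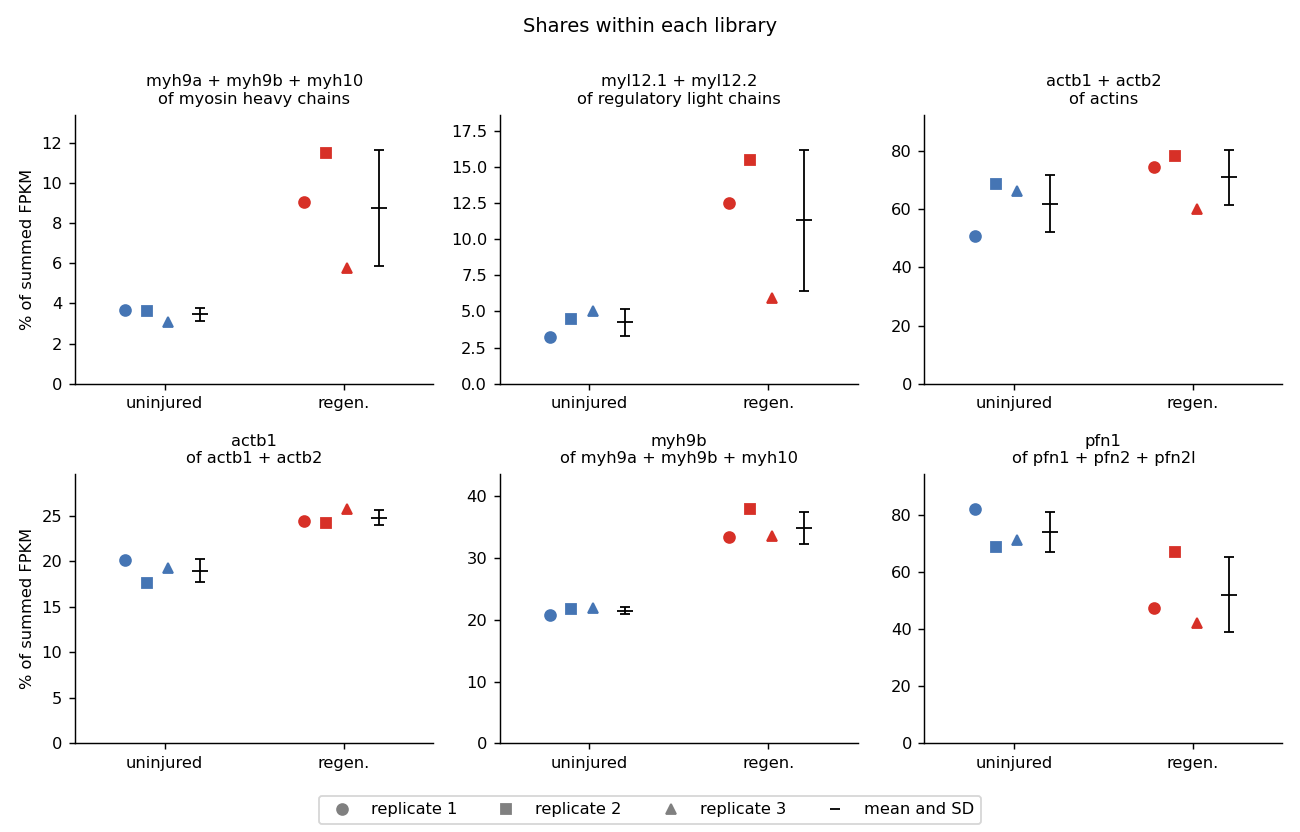
Percent of summed FPKM within each library taken by the named non-muscle genes, in the upper row beside their muscle counterparts and in the lower row within their own family, with replicate symbols and mean ± SD (n = 3). The light chain counterparts include myl9a and myl9b, which are also listed as non-muscle. The myosin heavy chain, light chain, actb1, myh9b and pfn1 panels show no overlap between groups, the actin panel does, and the sum under pfn1 was chosen after the data had been seen.

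Position was compared for the same genes. On the RefSeq annotation of GRCz12tu, which is not the GRCz10 build of the deposited values, the nearest named protein-coding gene was taken on each side of each gene. Both myl12 genes lie beside a myomesin gene, myl12.1 beside myom1b and myl12.2 beside myom1a. Myomesins cross-link myosin in the M-band of the sarcomere. The pair of beta-actin genes likewise lies beside the fascin genes, actb1 beside fscn1b and actb2 beside fscn1a, and myh9a and myh9b lie beside slc25a38b and slc25a38a.

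Of the 20 neighbours 13 were tested, 2 fell and none rose. Over all tested genes 3.94% were lower, 7.5% higher and 11.4% called in either direction. The 2 neighbours that fell were the myomesin genes, named after their values were seen. The neighbour of myl12.2, myom1a, averaged 12.22 ± 3.67 scaled FPKM in uninjured libraries and 4.40 ± 0.988 in regenerating ones (SD, n = 3). It fell by 1.27 on the log2 scale (SE 0.29, limma adjusted p = 0.0228), while myl12.2 rose. The neighbour of myl12.1, myom1b, measured 103.9 ± 26.7 and 28.2 ± 18.6 scaled FPKM (SD, n = 3), and fell by 1.996 (SE 0.41, limma adjusted p = 0.0157). Neither passed without scaling (limma adjusted p = 0.156 and 0.0512), where both stayed below 0. The call of myom1b was lost without regenerating replicate 1 (limma adjusted p = 0.0712) or 2 (0.0651). That of myom1a was lost without uninjured replicate 2 (0.0565) or any 1 regenerating library, replicate 1 (0.0580), replicate 2 (0.0786) or replicate 3 (0.0862). Neighbouring transcripts that overlap could share reads, which was not checked. A fall was not particular to these neighbours, as 4 of 15 cardiomyocyte markers also fell and none rose. The part of position in these changes was not tested.

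The wider actin and myosin machinery was covered by 7 lists. Of their 144 genes found, 128 were tested, 7 rose and 10 fell. That is 5.47% higher and 7.81% lower, beside 7.5% and 3.94% of all genes, and the median change was 0.10. The genes that fell include mylk3, tmod1, fhod3a and fhod3b, which are tied below to cardiac muscle or the sarcomere. The share that fell is thus not one of non-muscle genes alone. Without scaling 37 rose and 2 fell, and of the 10 that fell with scaling mylk3 and coro1cb passed there. The counts leaned on single libraries: 2 higher and none lower passed without regenerating replicate 1, 4 and 5 without replicate 2, and 4 and 6 without replicate 3 of that group. Calls over all genes dropped as well, without regenerating replicate 1 from 999 to 382 higher and from 525 to 146 lower. In the lists the counts were 11 and 5 without uninjured replicate 1, and 6 and 5 without uninjured replicate 3. Of the 17 genes called, cnn3a and kif23 passed in all 6 fits that left out 1 library, but kif23 was below 1 FPKM in every uninjured library and entered the test only through the regenerating ones. The riser anln, too, passed the filter only with the regenerating libraries. All 17 kept their sign in those fits.

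Cross-linkers and filament-binding genes held 4 of the 7 risers among 22 tested, beside 7.5% of all genes higher and 3.94% lower. Calponin gene cnn3a, whose product binds actin and restrains myosin, measured 22.8, 4.44 and 7.96 scaled FPKM in uninjured and 112, 93.8 and 90.9 in regenerating libraries. The groups were far apart, and it rose by 3.24 on the log2 scale (SE 0.46, limma adjusted p = 0.00292). The filament-bundling plastin gene pls3 measured 22.9, 37.7 and 32.3 in uninjured and 84.1, 71.9 and 81.7 scaled FPKM in regenerating libraries, and rose by 1.35 (SE 0.25, limma adjusted p = 0.0102). Its call was lost without regenerating replicate 1 (limma adjusted p = 0.0535). The filamin gene flnb also rose, by 1.78 (SE 0.42, limma adjusted p = 0.0243), and was called in only 1 of the 6 fits that left out a library, with a highest adjusted p of 0.0780. The fourth riser was a second calponin gene, cnn2, chosen after its value was seen (1.11, SE 0.27, limma adjusted p = 0.0288), called in 1 of those fits. The tropomyosin gene tpm2 (-1.26, SE 0.33) and the caldesmon gene cald1b (-1.08, SE 0.29) fell, each called in 1 of those 6 fits. The most abundant member, tpm4a, is also counted among the cardiomyocyte markers. It did not pass in limma (-0.48, SE 0.33, adjusted p = 0.382), and lay at 0.135 once scaling was left out.

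In the list of myosin II regulators 1 of 28 rose and 2 fell, beside 7.5% of all genes higher and 3.94% lower, and the list's median was -0.19. The small GTPase gene rhoca averaged 35.9 ± 8.19 scaled FPKM in uninjured libraries and 76.5 ± 17.5 in regenerating ones (SD, n = 3). It rose by 1.07 on the log2 scale (SE 0.27, limma adjusted p = 0.0331), and was called in 2 of the 6 fits that left out a library. The kinase gene mylk3 measured 27.3, 29.1 and 33.8 in uninjured and 5.82, 3.45 and 13.2 scaled FPKM in regenerating libraries, and fell by 2.04 (SE 0.39, limma adjusted p = 0.0112). Its call was lost without regenerating replicate 1 (limma adjusted p = 0.0535). Although listed here as a myosin kinase, mylk3 is known as the kinase of cardiac muscle. Myosin phosphatase gene ppp1r12a, whose product targets the enzyme that reverses light chain phosphorylation, fell by 0.97 (SE 0.25, limma adjusted p = 0.0375), and was called in 1 of the 6 fits.

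Of the other myosin II chains 1 of 4 fell, beside 3.94% of all genes lower. That was myh14, which encodes the motor of non-muscle myosin IIC, with 8.58, 6.71 and 6.24 scaled FPKM in uninjured and 1.43, 2.75 and 2.71 in regenerating libraries. Its change was -1.33 (SE 0.29, limma adjusted p = 0.0196), which did not pass without scaling (-0.85, limma adjusted p = 0.0698). The call was lost without regenerating replicate 1 (limma adjusted p = 0.0950) or replicate 3 (0.0505). The most abundant of these chains, myl9a, did not pass in limma (-0.28, SE 0.26, adjusted p = 0.534), and lay at 0.33 once scaling was left out.

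Turnover and capping genes outside the 10 gave no riser and 2 that fell among 21 tested, beside 7.5% of all genes higher and 3.94% lower. They were the coronin gene coro1cb (-1.57, SE 0.31, limma adjusted p = 0.0122) and tmod1 (-1.40, SE 0.34, limma adjusted p = 0.0286). Tropomodulin 1 caps the pointed ends of thin filaments in the sarcomere. Without 1 library coro1cb was called in 4 of 6 fits and tmod1 in 2. The most abundant gene of the list was the actin monomer buffer gene tmsb4x, with 3596 ± 420.1 and 3930 ± 331 scaled FPKM (SD, n = 3). Its change of 0.13 (SE 0.25, limma adjusted p = 0.779) did not pass. At that level tmsb4x was above actb2 in both groups.

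Nucleation and elongation genes gave 3 that fell and none that rose among 37, beside 3.94% of all genes lower and 7.5% higher. The filament elongation gene enah measured 49.1, 26.4 and 32.0 scaled FPKM in uninjured and 11.3, 14.4 and 11.5 in regenerating libraries, and fell by 1.42 (SE 0.28, limma adjusted p = 0.0129). Its call was lost without regenerating replicate 1 (limma adjusted p = 0.0643). The formin genes fhod3b (-1.50, SE 0.36) and fhod3a (-1.39, SE 0.34) also fell, with calls in 1 and 2 of the 6 fits that left out a library. The mammalian counterpart of the FHOD3 genes is a formin of the cardiac sarcomere. None of these 3 passed without scaling. The list's median was above that of all genes, at 0.25, and its most abundant member, vaspb, measured 0.09 (SE 0.33, limma adjusted p = 0.884).

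The contractile ring list gave 2 risers among 11 tested and none that fell, beside 7.5% of all genes higher and 3.94% lower. Anillin gene anln, whose product scaffolds actin, myosin and septins at the cleavage furrow, measured 0.823, 1.74 and 1.39 scaled FPKM in uninjured and 4.95, 4.58 and 5.198 in regenerating libraries. It rose by 1.37 (SE 0.27, limma adjusted p = 0.0137), but not without regenerating replicate 1 (limma adjusted p = 0.0612) or replicate 3 (0.0526). The gene kif23, for the kinesin of the midzone complex that positions the ring, rose by 1.41 (SE 0.24, limma adjusted p = 0.00764). Of the 11 tested, 2 were above 1 FPKM in no uninjured library and entered the test only through the regenerating ones. They were kif23 and racgap1, the latter named after its values were seen. In deposited FPKM anln measured 0.61, 1.72 and 1.0 in uninjured libraries, above 1 only in replicate 2. It too passed the filter only with the regenerating libraries. The rises of kif23 and anln are therefore no support for a change of the list. The septin gene sept9a, the most abundant of the list, measured 0.52 (SE 0.26, limma adjusted p = 0.230).

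None of the 5 tested genes for serum response factor and its actin-sensing cofactors rose or fell in limma. At an unadjusted p below 0.05 in limma 1 was lower, a level at which the share of all genes was not counted. The most abundant of them, mkl1b, measured 0.28 (SE 0.29, limma adjusted p = 0.590).

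**Figure D5:**
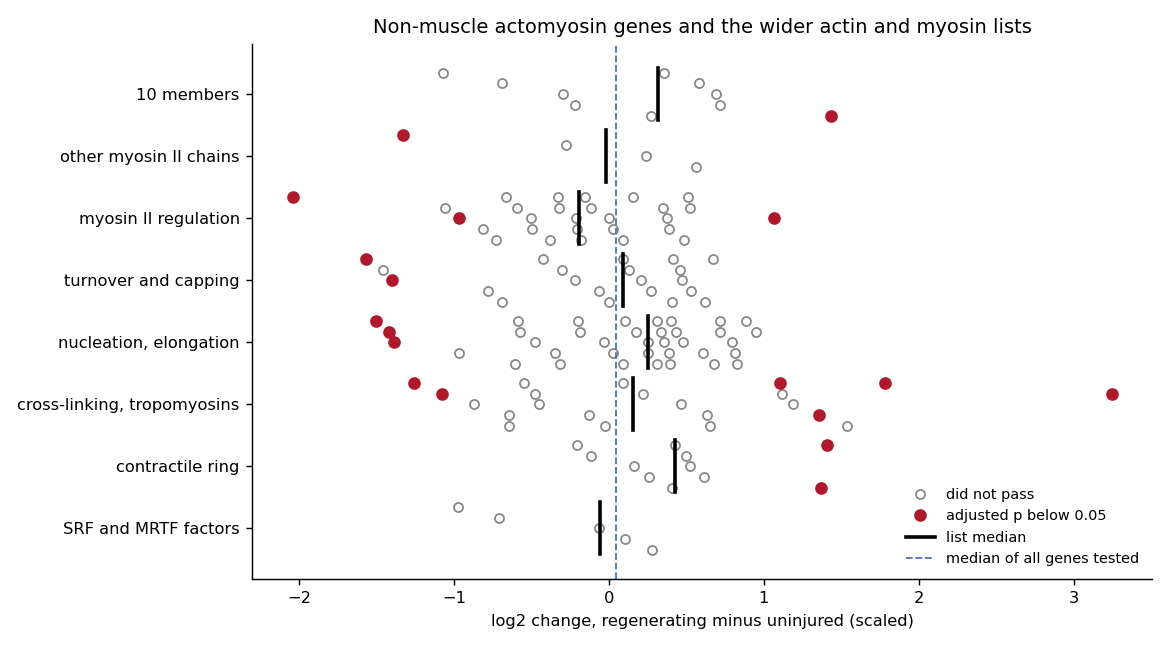
Log2 change (regenerating minus uninjured, scaled) of every tested gene of the 10 and of the 7 wider lists, with filled points past an adjusted p of 0.05, a bar at each list's median and a dashed line at the median of all tested genes. The 7 filled points on the right below the top row include cnn3a at 3.24, and the 10 on the left include mylk3 at -2.04.

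Nearly every animal cell carries non-muscle actomyosin, and the markers of some other cell types differed between the groups. Of 12 epicardial markers 9 rose, beside 7.5% of all tested genes higher and 3.94% lower, a background that holds for each marker list below. Their summed level went from 1183 to 1645 scaled FPKM in uninjured libraries to 2430 to 4744 in regenerating ones, the most abundant being anxa2a and krt8. Of 12 fibroblast markers 9 rose, with sums of 592 to 1023 and 2288 to 2708. The gene tcf21, named after its value was seen, is a riser of both the epicardial and the fibroblast list, so their counts are not independent. The most abundant fibroblast markers were fn1b and tnfaip6, of which tnfaip6 lay at -0.24 (SE 0.42) with scaling and at 0.38 otherwise. Among 16 endothelial and endocardial markers, 6 rose and 10 did not pass, with sums of 233 to 286 and 434 to 670, led by fabp11a and klf2a. The call of klf2a was lost without uninjured replicate 2 (limma adjusted p = 0.0985) or 3 (0.0597), or regenerating replicate 1 (0.163) or 3 (0.107). Of 12 macrophage and leukocyte markers tested 1 rose, and the sums overlapped, at 106 to 125 and 54.7 to 160. The most abundant of these, cd74a and cd74b, both lay at -0.57 (SE 0.42 and 0.45) with scaling and at 0.026 and 0.023 otherwise.

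Smooth muscle markers moved in both directions, and the counts here again stand beside 7.5% of all tested genes higher and 3.94% lower. Of 10 smooth muscle and mural markers 5 fell and 2 rose, with sums of 579 to 689 and 376 to 417, the most abundant being acta2, which fell by 1.38 (SE 0.24, limma adjusted p = 0.00839; it did not pass without scaling, limma adjusted p = 0.0772, nor without regenerating replicate 1, 0.0535), and rgs5b, which rose. Of 8 thrombocyte markers 3 fell and 1 rose. The riser was fn1b, which is also counted in the fibroblast list, and the other 7 lay below 0. The thrombocyte sums overlapped and were led by fn1b and apln. They include fn1b at 104 to 178 scaled FPKM in uninjured and 400 to 748 in regenerating libraries. The fall of apln was no longer called without uninjured replicate 1 (limma adjusted p = 0.0702) or 2 (0.0518), or regenerating replicate 1 (0.133) or 3 (0.121). Of 9 erythrocyte markers 3 rose, with overlapping sums led by hbba1 and hbaa1. Neither hbba1 nor hbaa1 passed (limma adjusted p = 0.0999 and 0.0605), and their uninjured libraries ran from 2.27 to 214 and from 2.29 to 156 scaled FPKM. Of the 9 tested, 1 was above 1 FPKM in no uninjured library and entered the test only through the regenerating ones. Of 15 cardiomyocyte markers 4 fell and none rose, and their sums were 7908 to 16390 in uninjured and 5755 to 10890 in regenerating libraries. These markers were thus abundant in all 6 libraries, whose cells the submitters call cardiomyocytes. No gene of the cardiomyocyte, epicardial, fibroblast or endothelial lists was at or below 1 FPKM in all libraries. The part of other cell types in the rise of myl12.2, in the ratios between the 10 genes and in the calls of the wider lists was not tested. In bulk libraries such as these, fewer cells of a type and less RNA per cell cannot be told apart.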

How the data were processed

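The submitters' processing notes name STAR 2.5.3a, RSEM 1.3.0, R 3.3.3, DESeq2 and the build GRCz10, without saying what each did. Per the labels' protocols, cDNA was made with a low-input amplification kit and read in pairs of 40 nt. The authors deposited log2 values of FPKM per gene and library, per the file headers. Undoing the log2 put all values on a grid of 0.01 FPKM (tolerance 0.001) with a lowest value of 0.1, so 0.1 was subtracted. Of the FPKM of 3585 genes to which the authors give a mean normalised count of 0, 99.1% stayed above 0, so low values hold a floor. The deposited table also holds the authors' mean normalised count (a signal over all libraries), their log2 fold change, their p-value and their adjusted p, all quoted as theirs. Counts per library are not given, so depth is unknown and only the spread between libraries shows precision. Among the 10 genes the authors' mean normalised counts ran from 178 for myl12.2 to 23030 for actb2.

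Genes above 1 FPKM in at least 3 libraries were kept. Scaling factors were median ratios, taken from 8924 genes that exceeded 1 FPKM everywhere. The log2 of scaled FPKM + 1 went into limma 3.58.1 (R 4.3.3) with group as the only term and the variance following mean expression, two-sided. This scale understates the change of low genes. The fit was tested on simulated data. Ratios used unscaled FPKM and exact permutation tests from scipy 1.17.1. Of 20 symbols turned into dates, 19 were restored by identifier. Of rows sharing a symbol, the most abundant was used.

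The 10 genes, the lists and the tests were chosen with earlier results of these data known. The text names the 10 genes, up to 3 called genes per direction and the most abundant gene of each wider list, the most abundant muscle counterparts, the 2 most abundant genes of each marker list and the denominators of ratios. Genes named outside this rule are said to be chosen afterwards. The ratios to cfl2 and capza1b were planned, but the levels and changes of these genes themselves were named after their values were seen. Alternatives were other choices of scaling, pseudocount, filter, variance trend and replicate block, and each library left out.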

Additional observations from a re-analysis of the deposited data

How the results depend on the processing

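With no scaling, the 10 genes had 4 higher, all genes 3161 higher and 203 lower, and the wider lists 37 higher and 2 lower, against 1, 999, 525, 7 and 10 with median-ratio scaling. Upper-quartile and trimmed-mean scalings, pseudocounts of 0.1 and 0.5, a filter at 5 FPKM and a fit with no intensity trend kept each of these counts within 1.5 times. With no filter on low values 483 genes were higher and 207 lower, and the wider lists had 4 and 2. Leaving out 1 library at a time gave 0 to 1 of the 10 higher and none lower, 382 to 1041 genes higher and 146 to 558 lower, and 2 to 11 higher and 0 to 8 lower in the wider lists. The 0 of the 10 came without regenerating replicate 1.

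Same-numbered libraries did not deviate together (correlations across genes of -0.0127, -0.00465 and -0.0623), so the numbers were not taken as pairs. With the replicate block 1 of the 10 was higher, 917 genes were higher and 485 lower, and the wider lists had 8 and 8. The replicate block with no scaling, added after seeing the data, gave 2 of the 10 higher, 2031 genes higher and 110 lower, and 16 and 0 in the wider lists.

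The change of myl12.2 ran from 1.22 to 2.03 over 16 alternatives and passed in 15. No other gene of the 10 passed with any scaling in place. Without scaling, with or without the block, the sign turned for actb2 (0.395), myh10 (0.291), cfl2 (0.123), myl9a (0.333), tpm4a (0.135), tnfaip6 (0.377), cd74a (0.026) and cd74b (0.023). Leaving out 1 library gave between -0.087 and 0.449 for vaspb, which was below 0 without uninjured replicate 2, uninjured replicate 3 (-0.082) or regenerating replicate 1 (-0.008), and between -0.782 and 0.098 for tnfaip6, above 0 without uninjured replicate 2. None of these passed in either fit. The cause of these shifts was not tested. Ratios of FPKM + 0.1 kept the sign of all 6 ratios tested.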
